A study of Mus musculus with 2 samples.

Results

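Genes of the nuclear pore and of the carriers that pass through it were examined in 2 mRNA libraries of a mouse lung cancer cell line, 1 labelled KPR- and 1 labelled KPR_restored, a name that refers to the restoration of *Runx3*. The members were taken by gene symbol. They were every gene named Nup, Kpna, Xpo, Ipo or Tnpo followed by a number, together with *Kpnb1*, *Ndc1*, *Pom121*, *Tpr*, *Rae1*, *Seh1l*, *Aaas* and *Ran*. In all, 51 of the 23183 listed genes met this rule, and 47 of the 51 were expressed, which here means an FPKM that averages 1 or more over both libraries. FPKM is the number of sequenced fragments scaled to transcript length and to depth, so levels of different genes can be set side by side.

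KPR- is an immortalized line from a lung cancer of a mouse. It carries the alleles K-Ras LSL-G12D/+ and p53 flox/flox, a Tomato reporter, the recombinase FlpERT2 and, at its target gene, *Runx3* flox/FSF. Cre, driven by a CMV promoter in an adenovirus, had switched on oncogenic K-Ras and deleted p53 and the *Runx3* flox allele, so both libraries come from cells without p53. The remaining *Runx3* allele is held off by a stop cassette between Frt sites. 4-OHT, an active form of tamoxifen, turns on the FlpERT2 recombinase, which removes the cassette and gives KPR_restored cells. The labels place KPR- at 0 h with the genotype RUNX3 -/- and KPR_restored at 16 h with RUNX3 -/+, and list 1 μM 4-OHT for both. By the study's methods the virus was given to mice of 6 to 8 weeks and tumour cells were taken 4 weeks later. A single line stands for each condition. In the study 4-OHT is what turns KPR- into KPR_restored cells, so the dose listed for KPR- is left unexplained. The question was which genes differ between the 2 libraries, which are meant to differ in *Runx3*, a transcription factor that can restrain tumour growth. Effects of *Runx3*, of 4-OHT and of the 16 h cannot be told apart here.

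The nuclear pore complex is the channel through which large molecules cross the nuclear envelope. Its scaffold is built from stacked rings of nucleoporins, and its channel is filled with nucleoporins rich in phenylalanine-glycine repeats. Importins and exportins bind cargo, cross this channel by touching those repeats, and release or load cargo under the control of the GTPase *Ran*. Dividing cells take the pores apart at mitosis and build new ones in both daughter nuclei, so growth needs a steady supply of these proteins.

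With 1 library per condition there was no replicate check, no p-value was computed, and every difference is one between 2 libraries. Differences are log2(FPKM + 0.005) in the library labelled KPR_restored minus that in the library labelled KPR-, and a gene was counted as higher or lower at 0.5 or -0.5 on that scale. Depth, read from the steps of low FPKM values, was 21.9 M fragments in KPR- and 22.4 M in KPR_restored. The 95% intervals given below are exact Clopper-Pearson limits from fragments estimated with this depth, and they cover counting error only. *Runx3* itself was at 0.348 FPKM in KPR- and at 0.349 in KPR_restored, a log2 difference of 0.0074 with an interval of -0.78 to 0.82, so its level did not check the labels. The epithelial genes *Epcam* (105 and 91.6 FPKM), *Cdh1* (119 and 130) and *Krt8* (1711 and 1631) were high in both libraries. The lung lineage genes *Sftpc*, *Sftpb*, *Sftpa1* and *Napsa* were listed at 0, and *Nkx2-1* was at 0.044 and 0.022 FPKM. Among genes of other cell types, the leukocyte gene *Cd68* was at 3.08 FPKM in KPR- and 6.78 in KPR_restored, while *Adgre1* and *Cd3e* were listed at 0 in both. The summed FPKM of 4 endothelial markers was 1.16 in KPR- and 2.22 in KPR_restored. *Kdr*, at 1.10 and 2.05 FPKM, made up nearly all of that sum. *Pecam1* was at 0.060 and 0.029 FPKM and *Cdh5* at 0 and 0.141, and *Tek* was listed at 0 in both. The summed FPKM of 6 fibroblast markers was 12.95 in KPR- and 5.43 in KPR_restored. Of the fibroblast markers only *Col1a1* was expressed, at 12.2 and 4.21 FPKM, and it made up nearly all of that sum, while *Dcn* was at 0.173 and 0.742 FPKM and *Pdgfra* at 0.273 and 0.363. The part of such cells in the results was not tested.

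Transcripts of the pore and of its carriers were, as a group, lower in the library labelled KPR_restored. Of the 47 expressed members, 40 had a difference below 0, where 49.0% of the 11231 expressed genes did. At -0.5 or less lay 7 members, namely the exportin gene *Xpo4*, the scaffold genes *Nup205*, *Nup160*, *Nup85* and *Ndc1*, and the importin genes *Ipo9* and *Ipo5*, while 9.29% of all genes were that low. No member was higher by 0.5 or more, where 12.1% of all genes were. The median member stood at -0.27, with quartiles of -0.43 and -0.08, and the median of all genes at 0.0086. The summed FPKM of the 47 members was 2518 in KPR- and 2118 in KPR_restored. In RNA from whole cultures, fewer cells of a type and less RNA per cell cannot be told apart.

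**Figure D1:**
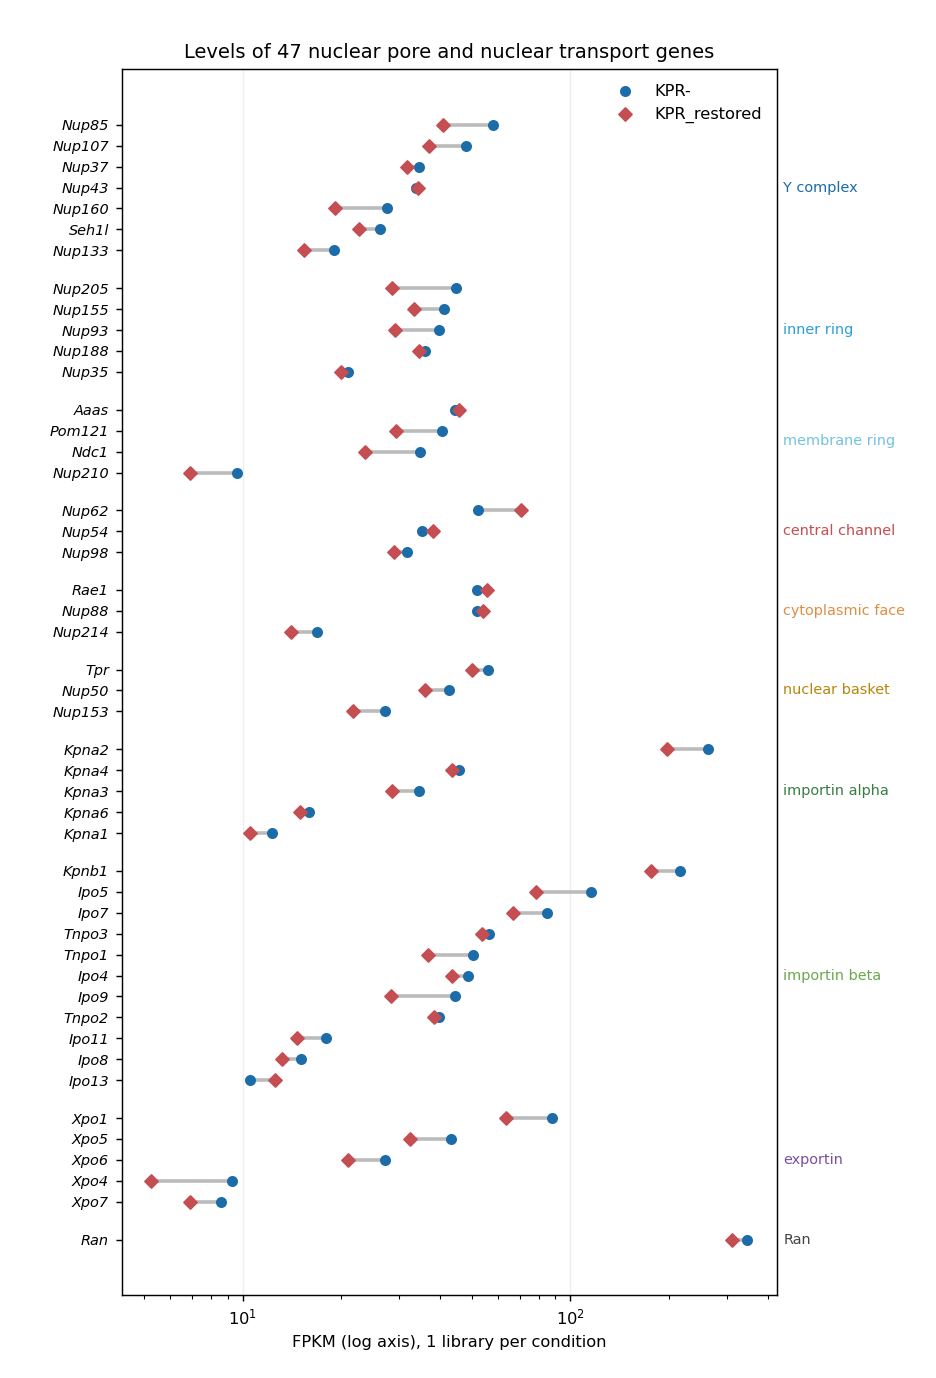
FPKM of each of the 47 members in the KPR- library (circles) and the KPR_restored library (diamonds) on a log axis, grouped by role, with a grey line joining the 2 values of a gene. Most diamonds lie to the left of their circles, and those of 7 genes (*Nup62*, *Ipo13*, *Nup54*, *Rae1*, *Nup88*, *Aaas* and *Nup43*) lie to the right.

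Most of these differences were larger than counting error. The interval lay wholly below 0 for 36 members and wholly above 0 for 4, and it held 0 for 7. Over the 11118 expressed genes with an interval, 33.0% lay wholly below 0 and 34.3% wholly above. The 25 nucleoporin genes had a median of -0.24, with 19 below 0 and 4 lower. The 21 carrier genes had a median of -0.30, with 20 below 0 and 3 lower. The plot of cumulative shares shows that the shift in both groups was not made by a few genes. It did not hold for every role, as the 3 central channel genes had a median of 0.11 and the 3 of the cytoplasmic face one of 0.06. Without the trend with transcript length described further on, these medians were 0.04 and -0.0022. *Nupl1*, a channel gene that the symbol rule leaves out, was at -0.40.

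**Figure D2:**
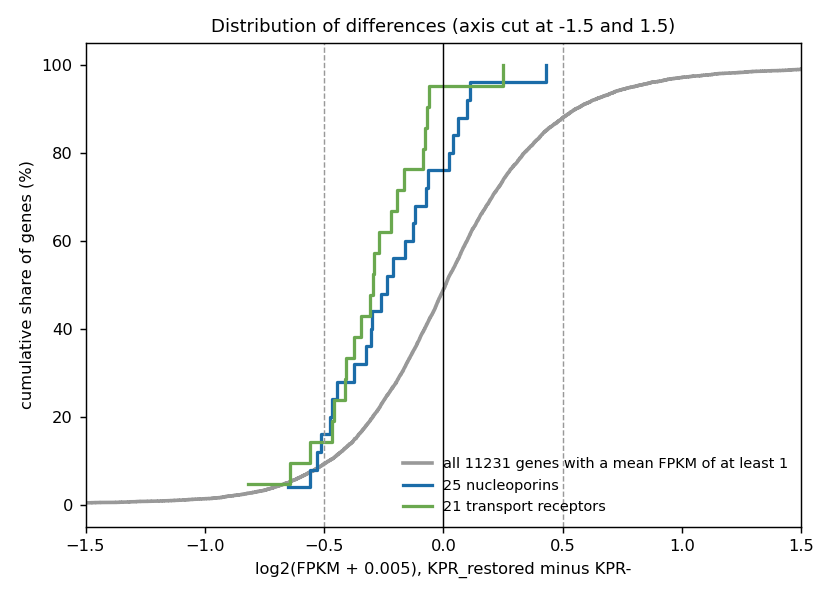
Cumulative share of genes (percent) against the log2 difference, KPR_restored minus KPR-, for all 11231 expressed genes, the 25 nucleoporin genes and the 21 carrier genes. Dashed lines mark -0.5 and 0.5, and the curves of both gene groups lie to the left of that of all genes over most of the axis.

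Promoter sequences of 4 members from near both ends of the range are shown. Their windows carry some of the short sequence motifs that were searched. *Nup205* and *Ipo9* were the lowest members with a promoter window, *Nup160* was the only one of the 5 lower members with a window to hold a RUNX motif, and *Nup62* was the highest member. Each runs 5′ to 3′ from 250 bases before the RefSeq start site to 25 after it, on GRCm38.p6. Capitals mark a motif, and positions are counted from 1 at the start site, with negative numbers before it. The *Nup205* window is chr6:35177366-35177640 on the plus strand, with the YY1 motif at 14. The *Ipo9* window is chr1:135430475-135430749 on the minus strand, with the NF-Y motif on the reverse strand at -4. The *Nup160* window is chr2:90676965-90677239 on the plus strand, with the RUNX motif on the reverse strand at -3. The *Nup62* window is chr7:44815838-44816112 on the plus strand, with NF-Y motifs at -242 (reverse strand) and -90 and the NRF1 motif at -19.
Nup205: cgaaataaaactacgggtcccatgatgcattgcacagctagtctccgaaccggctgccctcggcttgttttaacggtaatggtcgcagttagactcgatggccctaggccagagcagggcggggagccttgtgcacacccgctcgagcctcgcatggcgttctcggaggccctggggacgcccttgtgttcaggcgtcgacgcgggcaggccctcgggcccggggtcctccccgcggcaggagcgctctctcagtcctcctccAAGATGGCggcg
Ipo9: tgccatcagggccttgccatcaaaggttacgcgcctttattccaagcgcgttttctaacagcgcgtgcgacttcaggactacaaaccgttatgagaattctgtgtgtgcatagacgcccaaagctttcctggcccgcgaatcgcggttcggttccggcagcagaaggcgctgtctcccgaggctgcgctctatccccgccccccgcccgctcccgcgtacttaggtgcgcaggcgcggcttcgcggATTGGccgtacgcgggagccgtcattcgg
Nup160: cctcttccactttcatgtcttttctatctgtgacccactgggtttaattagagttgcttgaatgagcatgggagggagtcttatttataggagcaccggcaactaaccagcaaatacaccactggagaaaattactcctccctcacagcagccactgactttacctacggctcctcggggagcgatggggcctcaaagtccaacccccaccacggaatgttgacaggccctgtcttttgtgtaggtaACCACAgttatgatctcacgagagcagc
Nup62: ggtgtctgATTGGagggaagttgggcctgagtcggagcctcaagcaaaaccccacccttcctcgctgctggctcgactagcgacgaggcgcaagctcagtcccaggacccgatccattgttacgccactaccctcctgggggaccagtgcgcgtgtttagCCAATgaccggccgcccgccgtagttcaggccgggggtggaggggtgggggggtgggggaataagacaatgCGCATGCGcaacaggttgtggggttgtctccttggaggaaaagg

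The motifs were searched on both strands in the full windows of 300 bases, of which 45 belonged to 38 of the 47 expressed members. The RUNX motif TGTGGT was in 5 windows (11.1%), in *Nup160*, *Nup54*, *Rae1*, *Tnpo3* and *Xpo5*, and in 12.2% of the 10973 windows of expressed genes and 16.8% of all 32851 windows. Of those 5 genes, *Nup160* (-0.53), *Xpo5* (-0.41) and *Tnpo3* (-0.08) were below 0, and *Nup54* (0.11) and *Rae1* (0.10) above it. With fragments estimated from the shortest coding transcripts, the intervals of *Tnpo3*, *Nup54* and *Rae1* held 0. A part of *Runx3* in these values was not tested. The NF-Y motif CCAAT was in 22 windows of members (48.9%), against 37.9% and 37.4%. The NRF1 motif CGCATGCG was in 5 (11.1%), against 3.98% and 1.87%, and these belonged to *Nup107*, *Nup50*, *Nup62*, *Ran* and *Xpo5*. The YY1 motif AAGATGGC was in 4 (8.89%), against 4.66% and 2.75%. The ETS motif CCGGAAG was in 9 (20%), against 18.5% and 8.86%, and the E2F motifs TTTCGCGC and TTTGGCGC were in 1 (2.22%), against 1.57% and 0.813%. Over all 47 windows of members the median G and C content was 64% with a median of 27 CG pairs, against 61.3% and 21 over the expressed genes. A match is a run of letters, not a bound site, and motifs were allowed to overlap.

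The Y complex is the outer ring of the pore scaffold, and 6 of its 7 genes in the rule were below 0, with a median of -0.30. *Nup160*, which forms an arm of the Y, was at 27.6 FPKM in KPR- and 19.1 in KPR_restored, a difference of -0.53 (-0.61 to -0.46). *Nup85*, on the other arm, was at 58.1 and 40.7 FPKM, a difference of -0.51 (-0.60 to -0.42), and was the member just inside the threshold. *Nup107* of the stem was at 48.1 and 37.0 FPKM (-0.38), and *Nup133*, at its foot, at 19.0 and 15.4 (-0.30). The 4 large stem and arm genes were therefore each lower than counting error allows, and *Nup160* and *Nup85* were also past the threshold. *Seh1l*, which binds *Nup85* and also serves in a nutrient-sensing complex at the lysosome, was at 26.3 and 22.7 FPKM (-0.21, -0.31 to -0.12). The small propeller proteins *Nup37* and *Nup43* were closer to 0. *Nup37* was at 34.5 and 31.8 FPKM (-0.12, -0.26 to 0.026) and *Nup43* at 33.7 and 34.3 (0.02, -0.12 to 0.17), and neither differed beyond counting error. Without the trend with transcript length described further on, all 7 genes were below 0, with *Nup37* at -0.21 and *Nup133* at -0.19, and *Nup160* was no longer past the threshold (-0.43).

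The inner ring surrounds the channel, and all 5 of its genes were below 0 with a median of -0.30, though *Nup188* was at 0.04 without the length trend. *Nup205*, one of its large solenoid proteins, was the lowest nucleoporin at 44.9 FPKM in KPR- and 28.5 in KPR_restored, a difference of -0.65 (-0.71 to -0.59) from about 6088 and 3961 fragments. *Nup93*, the hub that holds the ring together, was at 39.6 and 29.1 FPKM (-0.44, -0.53 to -0.36). *Nup155*, which touches the membrane, was at 41.2 and 33.4 FPKM (-0.30, -0.36 to -0.25). The other two were close to even. *Nup188*, a relative of *Nup205*, was at 36.0 and 34.4 FPKM (-0.066, -0.13 to -0.0045), and *Nup35*, a linker of the ring, at 20.9 and 19.9 (-0.07, -0.24 to 0.092).

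Among the membrane ring genes, which anchor the pore in the envelope, 3 of 4 were well below 0. *Ndc1*, a membrane protein needed for pore assembly, was at 34.8 FPKM in KPR- and 23.6 in KPR_restored (-0.56, -0.64 to -0.48). *Nup210*, a membrane glycoprotein that some cell types lack, was at 9.57 and 6.88 FPKM (-0.48, -0.59 to -0.36), and *Pom121* at 40.4 and 29.3 (-0.47, -0.53 to -0.40). *Nup210*, *Xpo1* and *Pom121* were the members just outside the threshold. *Aaas*, the gene of the protein ALADIN that *Ndc1* holds at the pore, was at 44.5 and 45.8 FPKM (0.04, -0.061 to 0.14) and so did not differ beyond counting error.

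The 3 central channel genes were split, with *Nup62* and *Nup54* above 0 and *Nup98* below it, and their summed FPKM was 119 in KPR- and 138 in KPR_restored. Their median was 0.11, and 0.042 without the length trend. *Nup62*, the central repeat protein of the channel, was the highest member by difference, at 52.3 FPKM in KPR- and 70.5 in KPR_restored (0.43, 0.36 to 0.50), from about 2870 and 3958 fragments. *Nup54*, its partner, was at 35.3 and 38.1 FPKM (0.11, 0.013 to 0.21). *Nupl1*, the third protein of that trimer, which the symbol rule leaves out, was at 20.9 and 15.8 FPKM (-0.40, -0.51 to -0.29), so the genes of 1 complex lay on both sides of 0. *Nup98*, a repeat protein whose gene also encodes the Y complex protein Nup96, was at 31.7 and 29.0 FPKM (-0.13, -0.19 to -0.067). *Nup62* lies at chr7:44816088-44830812 on the plus strand, and 82 of its exonic bases (2.87%) are shared with *Atf5* on the opposite strand. *Atf5*, a stress-response transcription factor, was at 11.9 FPKM in KPR- and 53.1 in KPR_restored (2.16, 2.01 to 2.32), from about 416 and 1906 fragments. Whether strand was used in the estimation is not given in the sources used here, and the part of *Atf5* reads in the *Nup62* value was not tested.

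On the cytoplasmic face 2 of 3 genes were slightly above 0, though *Nup88* was at -0.0022 without the length trend. *Rae1*, an mRNA export factor that binds *Nup98*, was at 52.0 FPKM in KPR- and 55.8 in KPR_restored (0.10, 0.0051 to 0.19). *Nup88* was at 51.8 and 54.0 FPKM (0.06, -0.015 to 0.14). Its partner *Nup214*, which helps to release exported mRNA, was at 16.9 and 14.1 FPKM (-0.26, -0.35 to -0.17), and its interval did not overlap that of *Nup88*. Without the length trend *Nup214* was at -0.12, and intervals were not computed on that scale. The 3 genes of the nuclear basket were all below 0, though *Tpr* was at 0.0029 without the length trend. *Nup153*, which tethers the basket, was at 27.1 and 21.6 FPKM (-0.32), *Nup50*, which helps importins to unload, at 42.5 and 36.0 (-0.24), and *Tpr*, the filament protein of the basket, at 55.9 and 50.1 (-0.16).

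**Figure D3:**
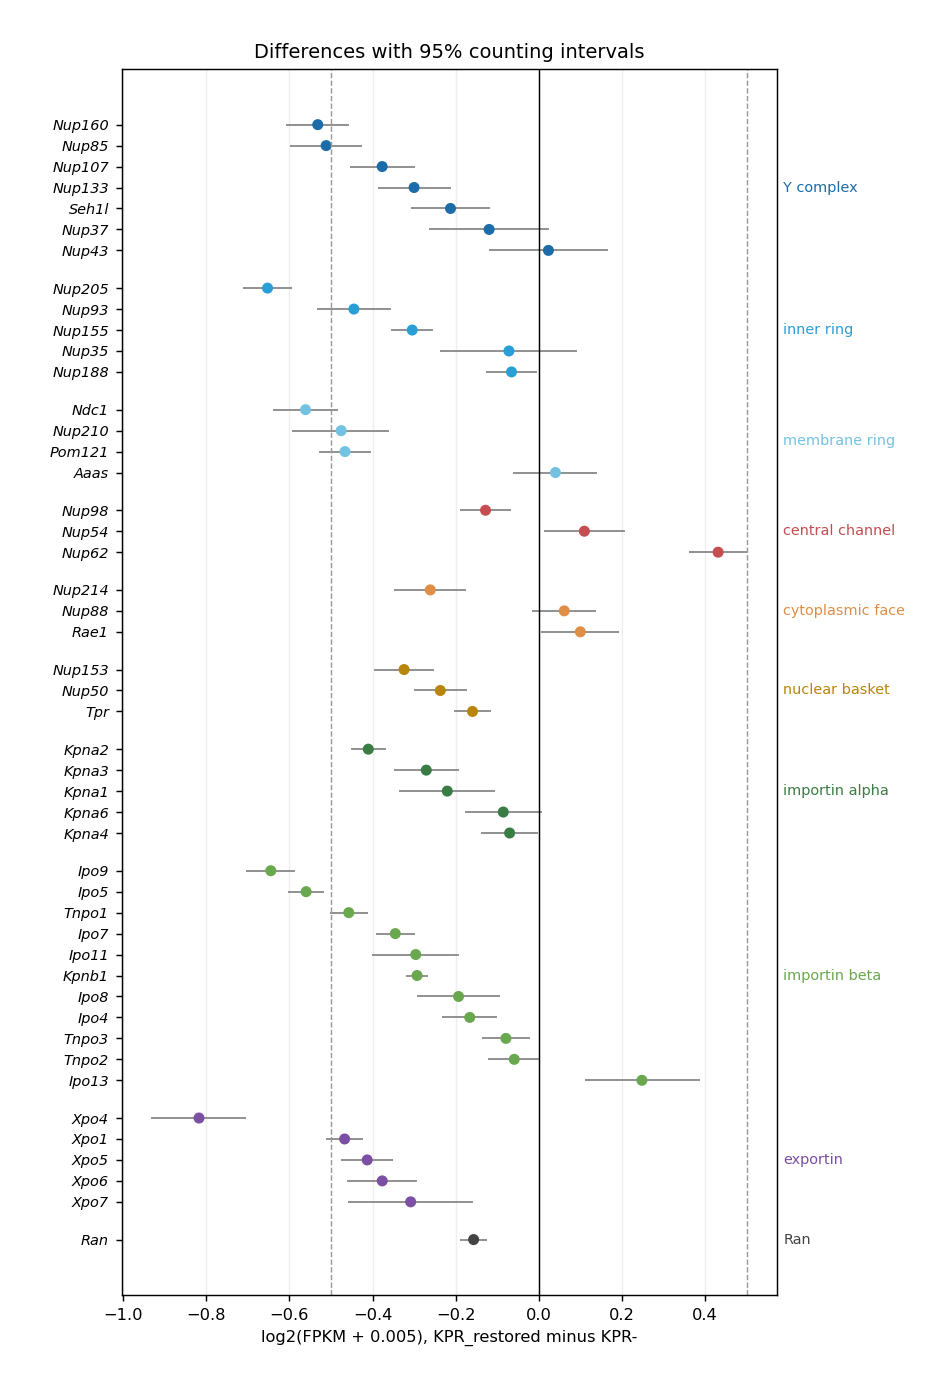
Log2 difference in FPKM, KPR_restored minus KPR-, of each of the 47 members by role, with bars for the 95% counting interval and dashed lines at -0.5 and 0.5. *Xpo4*, *Nup205* and *Ipo9* lie farthest to the left, and *Nup62* (0.43) and *Ipo13* (0.25) farthest to the right.

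Importin alpha proteins are the adaptors that read the classical nuclear localization signal, and the 5 expressed genes were all below 0, though *Kpna6* was at 0.02 without the length trend. *Kpna2*, the most abundant carrier transcript, was at 263 FPKM in KPR- and 198 in KPR_restored (-0.41, -0.45 to -0.37). *Kpna3* was at 34.4 and 28.6 FPKM (-0.27) and *Kpna1* at 12.2 and 10.5 (-0.22). *Kpna4* was at 45.7 and 43.5 FPKM (-0.07, -0.14 to -0.0017), and *Kpna6* at 15.9 and 15.0 (-0.09, -0.18 to 0.0075). The share of *Kpna2* in the summed FPKM of the family went from 70.8% (70.3 to 71.4) to 67.0% (66.3 to 67.7), and that of *Kpna4* from 12.3% (11.9 to 12.7) to 14.7% (14.3 to 15.2). *Kpna2* also shares 88.2% of its 100-base stretches with transcripts of 5 other annotated genes (*Gm10184*, *Gm10259*, *Gm12919*, *Gm13310* and *Gm16436*), so its level is uncertain where the estimation split such reads.

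Of the 11 importin beta genes, 10 were below 0 and 2 were lower, with a median of -0.29 (-0.18 without the length trend). *Kpnb1*, the partner of importin alpha, was the most abundant of them at 216 FPKM in KPR- and 176 in KPR_restored (-0.29, -0.32 to -0.27). *Ipo9*, a carrier of histones, was at 44.3 and 28.3 FPKM (-0.64, -0.70 to -0.59). *Ipo5*, a carrier of ribosomal proteins and histones, was at 116 and 78.6 FPKM (-0.56, -0.60 to -0.52). These were the importin genes past the threshold. Next came *Tnpo1*, which imports RNA-binding proteins, at 50.5 and 36.8 FPKM (-0.46), *Ipo7*, another carrier of ribosomal proteins, at 84.6 and 66.6 (-0.35), and *Ipo11* at 17.9 and 14.6 (-0.30). Smaller differences were seen for *Ipo8* at 15.1 and 13.2 FPKM (-0.19), *Ipo4* at 48.7 and 43.4 (-0.17), and *Tnpo3*, the carrier of SR splicing factors, at 56.6 and 53.5 (-0.08). *Tnpo2* was at 39.8 and 38.2 FPKM (-0.06, -0.12 to 0.0039), within counting error. *Ipo13*, which both imports and exports cargo, was the only carrier above 0, at 10.5 and 12.5 FPKM (0.25, 0.11 to 0.39).

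All 5 exportin genes were below 0 with intervals that did not reach it, and their median of -0.41 was the lowest of the carrier families. *Xpo4*, an exportin of a translation factor and of Smad proteins, was the lowest of the 47 members at 9.28 FPKM in KPR- and 5.26 in KPR_restored, a difference of -0.82 (-0.93 to -0.70) from about 1720 and 998 fragments. *Xpo1*, the general exportin of proteins with a leucine-rich export signal, was at 87.8 and 63.5 FPKM (-0.47, -0.51 to -0.42). *Xpo5*, which exports microRNA precursors, was at 43.2 and 32.5 FPKM (-0.41), *Xpo6*, the actin exportin, at 27.2 and 20.96 (-0.38), and *Xpo7* at 8.56 and 6.91 (-0.31). The summed FPKM of the family was 176 in KPR- and 129 in KPR_restored. Within that sum the share of *Xpo1* was 49.8% (49.1 to 50.6) and 49.2% (48.3 to 50.0), and that of *Xpo4* was 5.27% (5.02 to 5.52) and 4.08% (3.82 to 4.33). *Ran*, which gives transport its direction, had the highest level of the 47 members, at 346 FPKM in KPR- and 311 in KPR_restored (-0.16, -0.19 to -0.12).

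**Figure D4:**
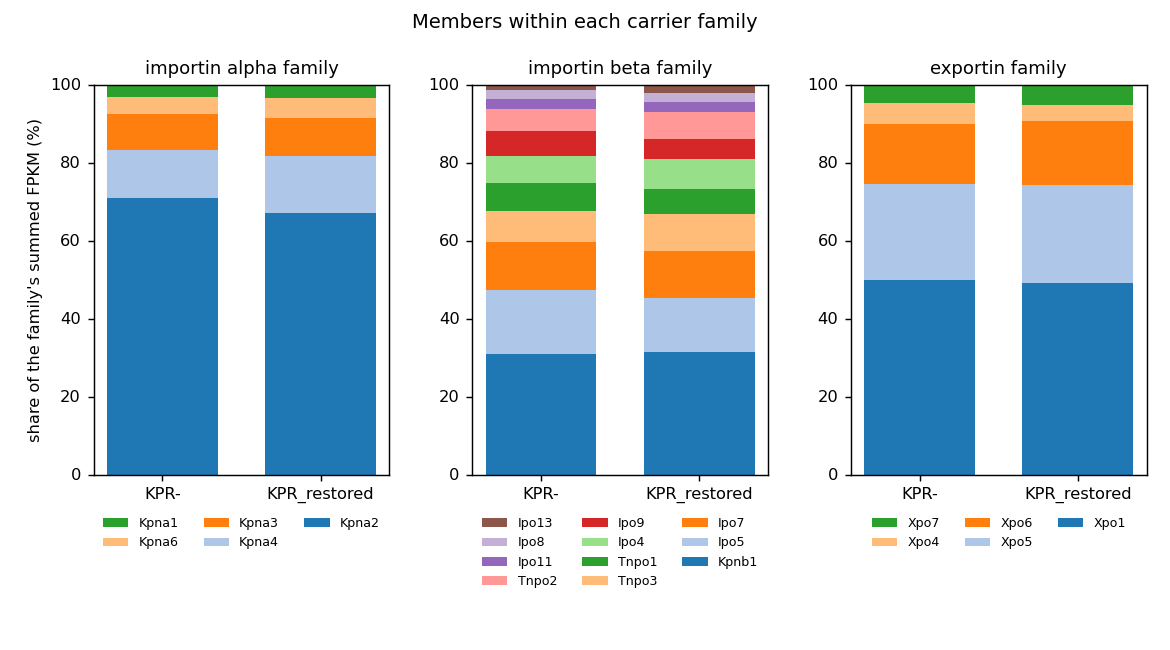
Share of each member (percent) in the summed FPKM of its carrier family in the KPR- and KPR_restored libraries. In the importin alpha family the *Kpna2* share was 70.8% and 67.0%, in the importin beta family the *Ipo5* share was 16.6% and 14.0%, and in the exportin family the *Xpo1* share was 49.8% and 49.2%.

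A description of 5 pairs of related members follows, and as the pairs were chosen after their values were seen, it says nothing of related genes in general. Intervals did not overlap in 4 pairs, and with fragments estimated from the shortest coding transcripts in 1, *Nup205* and *Nup188*. *Nup205* was at 1.25 times the FPKM of *Nup188* in KPR- and at 0.829 times in KPR_restored. *Tnpo1* was at 1.27 times the FPKM of *Tnpo2* in KPR- and at 0.961 times in KPR_restored. In both pairs the gene with the higher FPKM in KPR- had the lower FPKM in KPR_restored. These values hold the trend with transcript length. Without it *Nup205* was at -0.52 and *Nup188* at 0.04, and *Tnpo1* was at -0.27 and *Tnpo2* at 0.0013. Applied to the ratios in KPR-, these differences still reverse the order of *Nup205* and *Nup188* but keep that of *Tnpo1* and *Tnpo2*. The ratio of *Ipo7* to *Ipo8* was 5.61 and 5.04, and that of *Kpna3* to *Kpna4* was 0.754 and 0.656, so the order of levels within these pairs was kept. For *Kpna1* and *Kpna6* the ratio was 0.771 and 0.702, and their intervals overlapped.

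Member transcripts are long, and longer transcripts were lower across the whole libraries. The median transcript length was 4584 bases over the members and 3016 over all expressed genes. Spearman's correlation of the difference with length was -0.47 over the 47 members and -0.21 over 11153 genes, given as a description, since genes of 1 library pair are not independent. Among genes of 6000 bases or more the median was -0.39 for 10 members and -0.18 for all genes. From 4000 to 6000 bases it was -0.30 for 20 members and -0.05 for all, from 2000 to 4000 bases -0.16 for 12 members and 0.04 for all, and under 2000 bases 0.023 for 5 members and 0.087 for all. The member median was thus below that of all genes in each length class. After the trend over all genes was taken off, the median member was at -0.20, 38 of 47 were below 0, and 6 were at -0.5 or less, the 7 lower members other than *Nup160*. Of the 11153 genes on that scale, 5588 were below 0 and 992 were at -0.5 or less. Exportin genes had a median of -0.34 on that scale and nucleoporins one of -0.18. The part of transcript length in the values of single members was not tested.

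**Figure D5:**
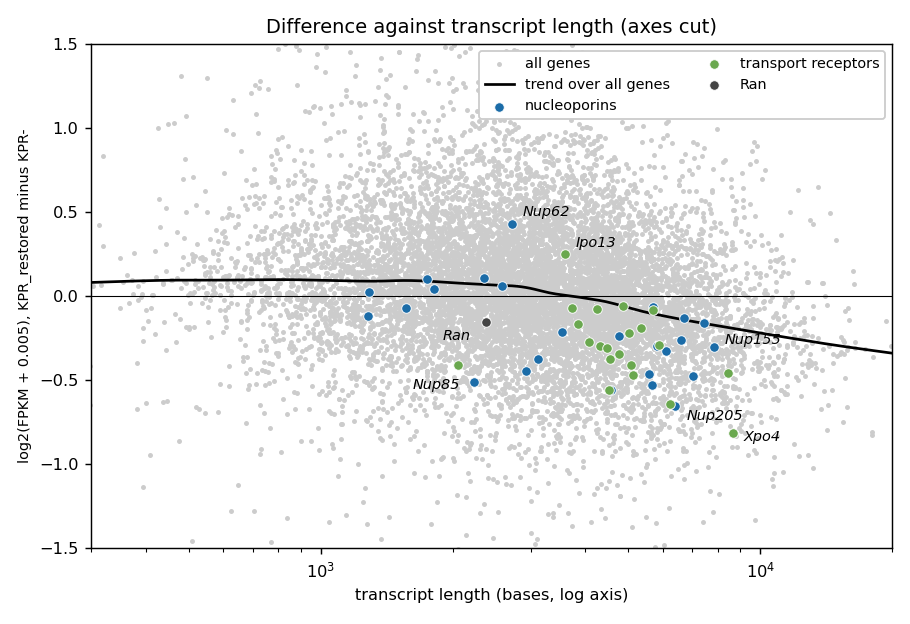
Log2 difference, KPR_restored minus KPR-, against transcript length in bases (log axis) for all genes (grey) and for the members, with the trend over all genes as a black line. *Xpo4* and *Nup205* lie below the line among the long transcripts, and *Nup62* (0.43) and *Ipo13* (0.25) lie above it.

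Some values are uncertain because members share sequence with other genes. Over 10% of the 100-base stretches of 5 members occur in transcripts of other annotated genes, and for 31 of the 50 members with an annotated gene none did. Beside *Kpna2* these were *Nup35* with 72.2% (*Gm4353*), *Ipo4* with 59.0% (*Gm49378*), *Ran* with 11.2% (*Gm13461*) and *Pom121* with 10.3% (*Nsun5* on the opposite strand). Of the 7 lower members, *Xpo4* had 3.76% and *Ipo5* 0.294% of their stretches in other genes, and *Nup205*, *Nup160*, *Nup85*, *Ndc1* and *Ipo9* had none. Shared sequence was thus small or absent among the lower members.

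The remaining 4 members were not expressed by the limit used here. *Kpna7*, an importin alpha of oocytes and early embryos, was listed at 0 in both libraries. *Nup210l*, a relative of *Nup210* known from the testis, was at 0.911 FPKM in KPR- and 0.608 in KPR_restored (-0.58, -1.04 to -0.15), from about 109 and 74 fragments. *Nup62cl* was at 0.496 and 0.437 FPKM from about 19 and 17 fragments, too few to tell a difference. The read-through entry *Nup62-il4i1* was at 0.415 and 0.764 FPKM and had no annotated gene here, so it has no interval, and *Il4i1* itself was listed at 0 in both libraries.

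Genes of the same pathway that the symbol rule leaves out gave a mixed picture. Beside the shares over all expressed genes, 12.1% higher and 9.29% lower, among 12 other pore and carrier genes 1 was higher and 3 were lower, with a median of -0.24. Without the length trend that median was -0.05, while that of the *Ran* cycle genes named below was -0.34. *Cse1l*, which returns importin alpha to the cytoplasm, was at 88.8 FPKM in KPR- and 59.1 in KPR_restored (-0.59, -0.64 to -0.53). *Ranbp17*, a carrier of the exportin kind, was at 1.81 and 1.05 FPKM (-0.79, -1.13 to -0.44). *Snupn*, the import adaptor of spliceosomal RNA-protein particles, was at 5.90 and 8.60 FPKM (0.54, 0.24 to 0.85), and *Xpot*, the exportin of transfer RNA, at 33.8 and 42.5 (0.33, 0.27 to 0.39). The exportin of transfer RNA thus ran opposite to the 5 exportin genes of the rule. Of 8 genes of the *Ran* cycle, 0 were higher and 2 were lower, with a median of -0.26. *Nutf2*, which carries *Ran* back into the nucleus, was at 6.50 and 3.57 FPKM (-0.86, -1.34 to -0.38), and *Rangrf* at 28.6 and 18.8 (-0.61, -0.84 to -0.38). *Rcc1*, the chromatin-bound exchange factor of *Ran*, was at 41.3 and 41.8 FPKM (0.02, -0.076 to 0.11), and *Ranbp9* at 18.6 and 24.5 (0.40, 0.29 to 0.50). Of 27 genes of mRNA and small RNA export, 0 were higher and 2 were lower, with a median of -0.06, and both counts were below those shares of all genes. Its extremes were *Ncbp2* of the cap-binding complex at 25.2 and 16.6 FPKM (-0.61), *Alyref2* at 1.97 and 1.38 (-0.51, -1.20 to 0.16), and on the other side *Thoc6* at 17.5 and 21.9 (0.32) and *Nxt1* at 38.7 and 47.3 (0.29).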

How the data were processed

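The 2 libraries were prepared by the authors from poly(A)-selected RNA with a directional kit and sequenced as paired ends. The authors removed adapters and low-quality reads with FASTX_Trimmer and BBMap, mapped the reads using TopHat (to mm10, by the submitters' processing notes), and deposited FPKM values that were estimated using Cufflinks, 1 per gene and library. Their versions, their annotation and the use of strand are not given in the sources used here.

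Groups were taken from the sample descriptions. Differences were computed from FPKM with a pseudocount of 0.005, over expressed genes (an FPKM averaging 1 or more), with a threshold of 0.5. On this scale the change of low genes is understated. Fragments behind each value are estimates, obtained from GENCODE M21 transcript lengths on GRCm38, the build that mm10 names, and from steps of low values. Where a gene has transcripts of 1 length only and 0.5 to 5.5 fragments, 76.3% of 615 in KPR- and 78.3% of 630 in KPR_restored lay within 0.1 of a whole number. Of the 23183 symbols, 22110 matched by name and 640 by an older symbol. Depth and intervals were tested on simulated data in which the transcript length of each gene was known. That test does not cover error from the choice of transcript. Promoter windows are RefSeq's on GRCm38.p6. Every member was named, with the 2 largest rises and falls of each pathway list. The members and lists were chosen with earlier results of these data known. Computations used scipy 1.17.1, statsmodels 0.14.6, pandas 2.3.3, numpy 2.4.6 and matplotlib 3.10.9 in Python 3.11.15. The alternatives were other pseudocounts, filters, thresholds and scalings, and removal of the length trend.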

Additional observations from a re-analysis of the deposited data

How the results depend on the processing

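With pseudocounts of 0.1 and 1, a mean FPKM of at least 5, scaling to the same FPKM total (TPM), to the same upper quartile and to the median gene, and with the length trend removed, 0 members were higher by 0.5 or more, and the count of lower members stayed between 6 and 10, with the 10 under the upper quartile and the 6 without the length trend. Among all genes, 1174 of 11231 were lower under the upper quartile and 992 of 11153 without the length trend. The median member lay between -0.31 (upper quartile) and -0.20 (length trend removed). Values of single members moved by more than their counting interval allows for 2 members (*Kpnb1* and *Ran*) under the upper quartile and for 21 without the length trend, and for 0 under the other scalings and pseudocounts. With the length trend removed, 8 members changed sign. *Nup43*, *Aaas* and *Nup88* went below 0, and *Nup188*, *Nup98*, *Tpr*, *Kpna6* and *Tnpo2* above it. With no filter on low values 1 of 50 members was higher, the read-through entry *Nup62-il4i1*, and 8 were lower. In that setting 3193 of all 16508 genes were higher and 3002 were lower, so the members held no excess of lower genes there. With a threshold of 1, 0 members were lower, where 155 of 11231 genes were. With the shortest coding transcript of each gene in place of the longest, intervals of 28 of 46 members excluded 0, against 39. Those that then held 0 were *Ipo4*, *Ipo8*, *Kpna1*, *Kpna4*, *Nup188*, *Nup54*, *Nup98*, *Rae1*, *Tnpo3*, *Tpr* and *Xpo6*. No paired analysis was possible because each condition has 1 library. Leaving out a library leaves no comparison.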

Other observations

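The nuclear envelope around the pore was described from a list of 15 genes of the lamina and its membrane partners. Of these, 0 were higher and 4 were lower, with 12 below 0 and a median of -0.18, where 12.1% of all expressed genes were higher, 9.29% lower and 49.0% below 0. *Lmnb1*, a B-type lamin, was at 71.2 FPKM in KPR- and 42.6 in KPR_restored (-0.74, -0.81 to -0.67), and *Lmnb2* at 28.8 and 19.3 (-0.58, -0.68 to -0.48). *Lbr*, the membrane receptor of B-type lamins, was at 57.8 and 38.8 FPKM (-0.58, -0.64 to -0.51). *Syne2*, which links the envelope to the cytoskeleton, was at 11.3 and 6.77 FPKM (-0.74, -0.80 to -0.68). *Lmna*, the A-type lamin gene, was at 441 and 420 FPKM (-0.07, -0.094 to -0.046), so the B-type lamins and their receptor were lower while *Lmna* was close to even. On the other side were *Emd*, the gene of emerin, at 44.8 and 60.8 FPKM (0.44, 0.34 to 0.54) and *Lemd2* at 25.4 and 30.8 (0.28, 0.17 to 0.38). *Lmnb2* and *Lbr* were named after their values were seen.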
